A study of Homo sapiens with 3 samples.

Results

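The inhibitors of apoptosis (IAPs) and the proteins that oppose them were followed as a set of 7 genes, BIRC2, BIRC3, XIAP, BIRC6, DIABLO, HTRA2 and BAG1. They were taken from the deposited count table by GENCODE gene name, which gave 8 of its 58884 rows, since DIABLO is the name of 2 rows. The second DIABLO row, ENSG00000284934, overlaps the first and held 0 counts in every library. The other 7 rows all had a mean of at least 50 counts over the libraries, the minimum for a gene to be called measured here. In all, 12256 genes were measured.

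RNA had been sequenced from LNCaP, an established androgen-responsive human prostate cancer cell line, after 72 h in 1 of 3 media. The PPAT-CM library (tumor in the labels) came from cells in medium conditioned by periprostatic adipose tissue, the PVAT-CM library (normal in the labels) from cells in a second adipose conditioned medium whose abbreviation the labels do not spell out, and the control-CM library from cells in control conditioned medium. All 3 media held 50% conditioned medium and 2% fetal bovine serum, and the cells had grown for 24 h beforehand. Each medium had 1 library, so no difference below has a replicate check, no p-value is given, and intervals in parentheses are 95% intervals of counting error alone.

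IAPs share a zinc-binding fold, the BIR domain. BIRC2 (cIAP1) and BIRC3 (cIAP2) are ubiquitin ligases that sit in TNF receptor complexes with TRAF2 and modify RIPK1, which favours survival signalling, and they also hold down the kinase MAP3K14 and with it the noncanonical NF-kB pathway. XIAP binds and blocks caspases directly, and BIRC6 is a very large ubiquitin-conjugating IAP. DIABLO (SMAC) and HTRA2 (Omi) are kept between the mitochondrial membranes and, once released, bind BIR domains and displace caspases. BAG1, a nucleotide exchange factor of HSP70 chaperones that also binds BCL2, has no BIR domain and is neither an IAP nor an IAP antagonist. BIRC3 is a known transcriptional target of NF-kB.

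BIRC3 and BIRC2 lie next to each other on the plus strand of chromosome 11, with 7807 bases between them (GRCh38, GENCODE release 29). The upstream sequences of this neighbouring pair are shown because these adjacent paralogs had unlike levels across the media. Each line gives the 250 bases before a RefSeq transcription start (GRCh38.p14, plus strand, 5′ to 3′), and capitals mark a match, on either strand, of the NF-kB motif searched, which is GGG and TTCC with any 3 bases between them.
BIRC3, chr11:102317234-102317483: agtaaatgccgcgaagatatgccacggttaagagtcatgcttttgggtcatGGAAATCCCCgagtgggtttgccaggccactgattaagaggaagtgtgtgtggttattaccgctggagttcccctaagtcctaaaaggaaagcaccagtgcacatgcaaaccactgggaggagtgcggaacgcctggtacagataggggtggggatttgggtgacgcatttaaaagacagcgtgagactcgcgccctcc
BIRC2, chr11:102346964-102347213: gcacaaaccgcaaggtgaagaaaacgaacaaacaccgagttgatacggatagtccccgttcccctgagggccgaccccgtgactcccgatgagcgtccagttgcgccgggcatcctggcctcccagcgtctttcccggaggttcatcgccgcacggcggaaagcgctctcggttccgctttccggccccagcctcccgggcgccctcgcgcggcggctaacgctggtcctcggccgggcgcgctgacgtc
The match in BIRC3, GGAAATCCCC, begins 199 bases before the start and reads as the motif on the minus strand. All 7 genes had at least 1 RefSeq promoter window, 15 windows in all because some genes have several starts, and the BIRC3 window was the 1 window with a match. Of 35116 RefSeq promoter windows, 5.67% held this motif in the same 250 bases, and 3.02% held the interferon response motif searched, GAAA and GAAA with any 2 bases between them, which none of the 15 windows held. With 1 match in all, none overlapped another. A match of letters is no measurement of binding.

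The cellular IAP BIRC3 (ENSG00000023445, chromosome 11, 102317450 to 102339403) had 448 counts in PPAT-CM, 111 in PVAT-CM and 108 in control-CM. On the scaled CPM scale (CPM with library totals adjusted by TMM, a correction for library composition) these were 24.4 (22.2 to 26.7) in PPAT-CM, 7.79 (6.40 to 9.38) in PVAT-CM and 7.12 (5.84 to 8.60) in control-CM. The PPAT-CM library stood alone at the high end, and the intervals of the other 2 overlapped. BIRC3 was thus 3.42-fold higher in PPAT-CM than in control-CM (2.77 to 4.26) and 3.13-fold higher than in PVAT-CM (2.54 to 3.89), while its fold in PVAT-CM against control-CM was 1.09 (0.831 to 1.44). Of the 12256 measured genes 0.963% had a larger ratio than BIRC3 in PPAT-CM against control-CM, and 0.734% had one in PPAT-CM against PVAT-CM.

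Its neighbour BIRC2 (ENSG00000110330, chromosome 11, 102347211 to 102378670) had 1030 counts in PPAT-CM, 690 in PVAT-CM and 566 in control-CM. Its scaled CPM values were 56.0 (52.6 to 59.5) in PPAT-CM, 48.4 (44.9 to 52.1) in PVAT-CM and 37.3 (34.3 to 40.5) in control-CM. Both adipose media gave more BIRC2 than control-CM did, and no interval overlapped another. BIRC2 was 1.501-fold higher in PPAT-CM than in control-CM (1.35 to 1.67), 1.30-fold higher in PVAT-CM than in control-CM (1.16 to 1.45) and 1.16-fold higher in PPAT-CM than in PVAT-CM (1.05 to 1.28). The first value lies at the 1.5-fold threshold used for a call here and is under it with upper quartile factors, with TMM factors that leave out mitochondrial genes and with a pseudocount of 5. BIRC2 and BIRC3 share 11 exact 50-base stretches of transcript sequence, 0.224% of those in BIRC2 and 0.144% of those in BIRC3, so few reads could fit both.

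XIAP (ENSG00000101966, chromosome X, 123859724 to 123913979) had 1674 counts in PPAT-CM, 1102 in PVAT-CM and 1106 in control-CM, or 91.0 (86.7 to 95.5) scaled CPM in PPAT-CM, 77.3 (72.8 to 82.0) in PVAT-CM and 72.9 (68.7 to 77.3) in control-CM. XIAP was 1.248-fold higher in PPAT-CM than in control-CM (1.16 to 1.35) and 1.18-fold higher than in PVAT-CM (1.09 to 1.27), and the interval of PVAT-CM against control-CM included 1 (0.974 to 1.15). These XIAP differences are small: 25.6% of measured genes had a larger ratio in PPAT-CM against control-CM. Of the 50-base stretches of XIAP transcripts, 4.56% also occur in other genes, so a few reads may be shared. The pseudogene XIAPP1 holds more of them than any other gene, 141 of the 425 shared stretches.

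BIRC6 (ENSG00000115760, chromosome 2, 32357028 to 32618899) was the flattest of the set, with 1248 counts in PPAT-CM, 1011 in PVAT-CM and 1054 in control-CM. Its scaled CPM values, 67.9 (64.2 to 71.7) in PPAT-CM, 70.9 (66.6 to 75.4) in PVAT-CM and 69.5 (65.4 to 73.8) in control-CM, had intervals that all overlapped. The fold was 0.977 (0.899 to 1.06) for PPAT-CM against control-CM, 1.02 (0.935 to 1.11) for PVAT-CM against control-CM and 0.957 (0.880 to 1.04) for PPAT-CM against PVAT-CM. The sign of the BIRC6 difference between PPAT-CM and control-CM depends on the scaling, with a log2 ratio of -0.03 by TMM and 0.21 by library totals alone, and that between PPAT-CM and PVAT-CM also turns with library totals.

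**Figure D1:**
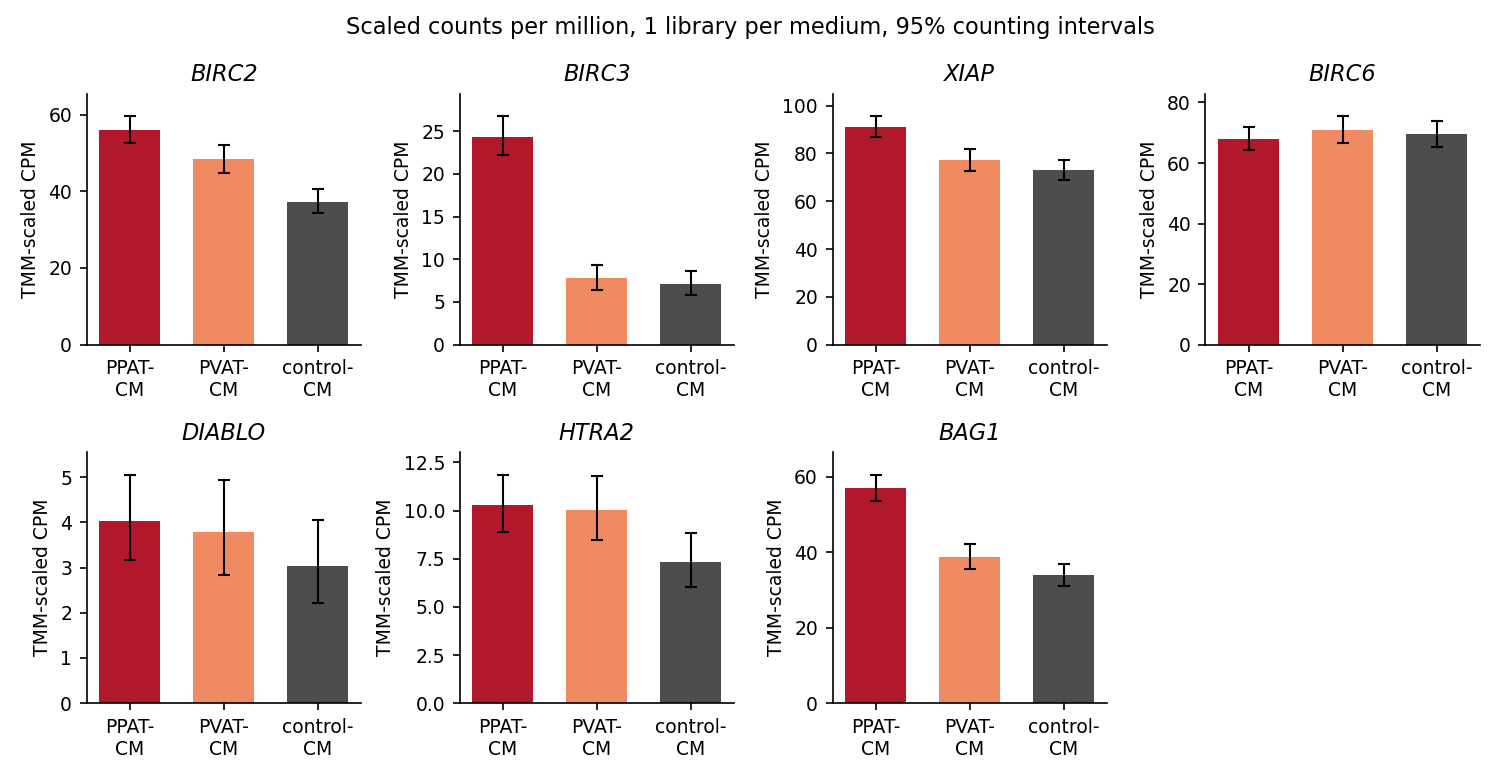
TMM-scaled CPM (y axis, linear from 0) of the 7 genes in the PPAT-CM, PVAT-CM and control-CM libraries, 1 bar per library, with 95% Poisson counting intervals as error bars. BIRC3 reaches 24.4 in PPAT-CM against 7.79 in PVAT-CM and 7.12 in control-CM, BAG1 and BIRC2 are also highest in PPAT-CM, and the 3 bars of BIRC6 lie between 67.9 and 70.9.

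The IAP antagonist HTRA2 (ENSG00000115317, chromosome 2, 74529377 to 74533348), a serine protease, had 189 counts in PPAT-CM, 143 in PVAT-CM and 111 in control-CM. On the scaled CPM scale it was at 10.3 (8.87 to 11.9) in PPAT-CM, 10.0 (8.45 to 11.8) in PVAT-CM and 7.32 (6.02 to 8.81) in control-CM. HTRA2 was 1.40-fold higher in PPAT-CM than in control-CM (1.11 to 1.79) and 1.37-fold higher in PVAT-CM than in control-CM (1.06 to 1.77), and the adipose media did not separate, with a fold of 1.02 (0.820 to 1.28) in PPAT-CM against PVAT-CM. In PVAT-CM against control-CM 6.63% of measured genes had a larger ratio than HTRA2. On the opposite strand 483 exon bases of HTRA2 overlap AUP1 and 625 overlap LOXL3, which leaves 63.1% of its exon bases to HTRA2 alone, and the strand setting of the counting is not given in the sources used here. AUP1, the more abundant neighbour, went the other way, with 1550 counts in PPAT-CM, 1495 in PVAT-CM and 1741 in control-CM and a fold of 0.734 (0.685 to 0.787) in PPAT-CM against control-CM. What the overlap adds to or takes from HTRA2 was not tested.

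DIABLO (ENSG00000184047, chromosome 12, 122207663 to 122226568, minus strand) had 74 counts in PPAT-CM, 54 in PVAT-CM and 46 in control-CM, the lowest of the set. Its scaled CPM values were 4.02 (3.16 to 5.05) in PPAT-CM, 3.79 (2.85 to 4.94) in PVAT-CM and 3.03 (2.22 to 4.05) in control-CM, and all intervals overlapped. The fold was 1.33 (0.906 to 1.96) for PPAT-CM against control-CM, 1.249 (0.827 to 1.89) for PVAT-CM against control-CM and 1.06 (0.738 to 1.54) for PPAT-CM against PVAT-CM, so a difference was not detectable at this depth. In GENCODE release 29 this row shares 2006 exon bases with the second row of the same name and others with AC048338.1 (same strand) and B3GNT4 (opposite strand), which leaves 69.6% of its exon bases unshared. Both same-strand partners held 0 counts, and whether reads from the shared exons were counted for DIABLO was not tested, so its level may be understated.

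The co-chaperone gene BAG1 (ENSG00000107262, chromosome 9, 33247820 to 33264720, minus strand) had 1047 counts in PPAT-CM, 552 in PVAT-CM and 514 in control-CM. It was at 56.9 (53.5 to 60.5) scaled CPM in PPAT-CM, 38.7 (35.6 to 42.1) in PVAT-CM and 33.9 (31.0 to 36.9) in control-CM. BAG1 in PPAT-CM stood above the other 2 libraries, whose intervals overlapped. It was 1.68-fold higher in PPAT-CM than in control-CM (1.51 to 1.87), 1.47-fold higher than in PVAT-CM (1.33 to 1.63) and 1.14-fold higher in PVAT-CM than in control-CM (1.01 to 1.29). Of the measured genes, 7.60% had a larger ratio in PPAT-CM against control-CM.

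Counted together, 3 of the 7 genes (BIRC3, BAG1 and BIRC2) were at least 1.5-fold higher in PPAT-CM than in control-CM and none was at least 1.5-fold lower, where 12.0% of all measured genes were higher and 8.71% lower by that measure. The median log2 ratio was 0.49 over the 7 genes and 0.03 over all measured genes. In PPAT-CM against PVAT-CM 1 of 7, BIRC3, was at least 1.5-fold higher and none lower (8.56% and 6.07% of all measured genes), with medians of 0.21 and 0.02. In PVAT-CM against control-CM none of the 7 passed 1.5-fold in either direction (3.15% higher and 3.49% lower among all measured genes), with medians of 0.19 and 0.02. The counting interval of the fold lay above 1 for 5 of 7 genes in PPAT-CM against control-CM, against 35.0% of all measured genes, and for 3 of 7 in PVAT-CM against control-CM, against 24.0%. It lay above 1 for 4 of 7 in PPAT-CM against PVAT-CM, against 30.7%, and below 1 for none of the 7 in any comparison, where it lay below 1 for 29.0%, 20.5% and 25.6% of all measured genes in PPAT-CM against control-CM, PVAT-CM against control-CM and PPAT-CM against PVAT-CM. These comparisons share libraries, and 7 genes are few, so the counts describe the set and are not evidence that it moved as one. More RNA per cell and more cells that make a transcript cannot be told apart in such bulk libraries.

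**Figure D2:**
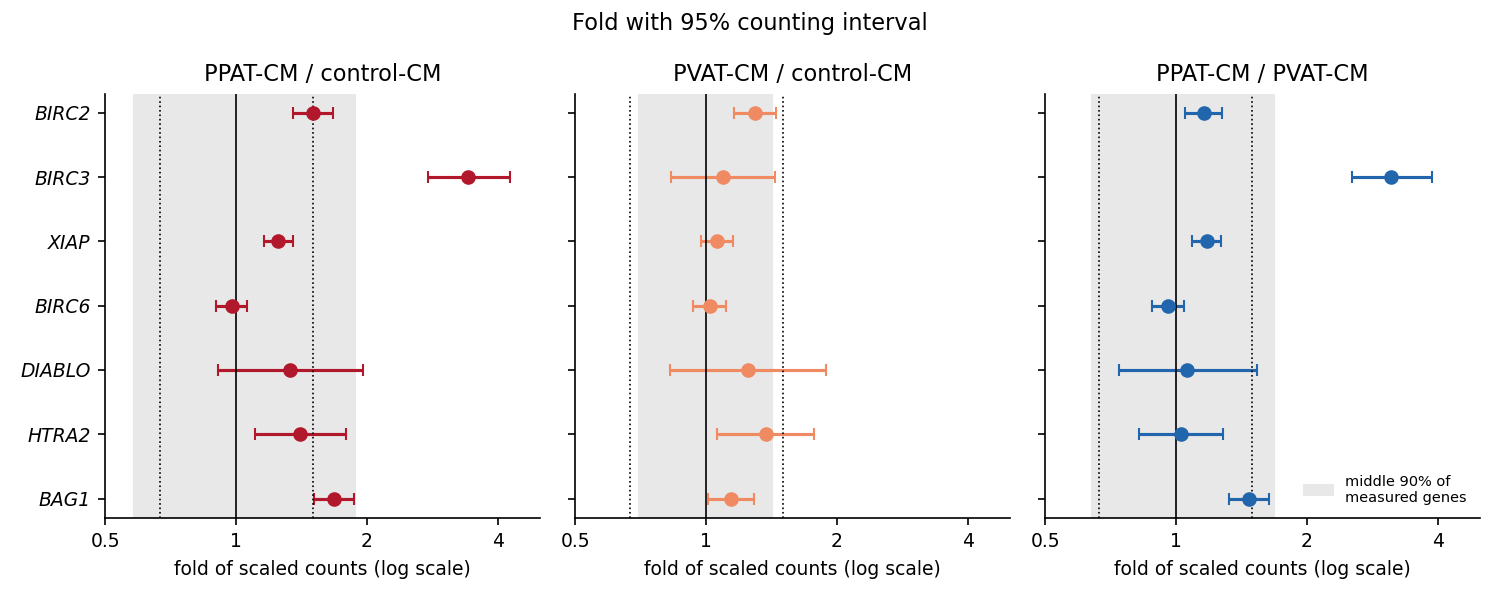
Fold of scaled counts (x axis, log scale) for each gene in PPAT-CM over control-CM, PVAT-CM over control-CM and PPAT-CM over PVAT-CM, with 95% counting intervals, a solid line at 1, dotted lines at 1.5-fold in each direction and grey shading over the middle 90% of all measured genes. BIRC3 lies outside the shading in both comparisons of PPAT-CM, at 3.42 and 3.13, and every gene lies inside it in PVAT-CM over control-CM.

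A ratio of 2 genes within 1 library needs no scaling between libraries. There were 0.435 BIRC3 counts per BIRC2 count in PPAT-CM (0.388 to 0.486), 0.161 in PVAT-CM (0.130 to 0.197) and 0.191 in control-CM (0.154 to 0.235). The balance of the 2 cellular IAPs was thus 2.28 times as far towards BIRC3 in PPAT-CM as in control-CM (1.80 to 2.91) and 2.70 times as far as in PVAT-CM (2.14 to 3.43), and PVAT-CM and control-CM did not separate (0.843, 0.626 to 1.14). BIRC2 relative to XIAP was similar in both adipose media, at 0.615 (0.569 to 0.665) in PPAT-CM and 0.626 (0.568 to 0.689) in PVAT-CM, against 0.512 (0.462 to 0.567) in control-CM. The BIRC2 to XIAP ratio was 1.20 times that of control-CM in PPAT-CM (1.06 to 1.37) and 1.22 times in PVAT-CM (1.06 to 1.41). BAG1 relative to BIRC6 was 0.839 in PPAT-CM (0.772 to 0.911), 0.546 in PVAT-CM (0.491 to 0.606) and 0.488 in control-CM (0.438 to 0.542).

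For each antagonist the intervals relative to XIAP overlapped across the 3 libraries. HTRA2 had 0.113 counts per XIAP count in PPAT-CM (0.0966 to 0.131), 0.130 in PVAT-CM (0.108 to 0.155) and 0.1004 in control-CM (0.0818 to 0.122). DIABLO had 0.0442 per XIAP count in PPAT-CM (0.0345 to 0.0558), 0.0490 in PVAT-CM (0.0366 to 0.0644) and 0.0416 in control-CM (0.0303 to 0.0559). With DIABLO and HTRA2 summed over BIRC2, BIRC3, XIAP and BIRC6 summed, the ratio was 0.0598 in PPAT-CM, 0.0676 in PVAT-CM and 0.0554 in control-CM. Against control-CM this summed ratio differed by 1.08 times in PPAT-CM (0.877 to 1.33) and 1.22 times in PVAT-CM (0.978 to 1.52), and between PPAT-CM and PVAT-CM by 0.884 times (0.728 to 1.08). Each of these intervals includes 1. Without BIRC6 in the sum, the ratio in PPAT-CM was 0.806 times that in PVAT-CM (0.662 to 0.983), an interval that leaves 1 out.

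**Figure D3:**
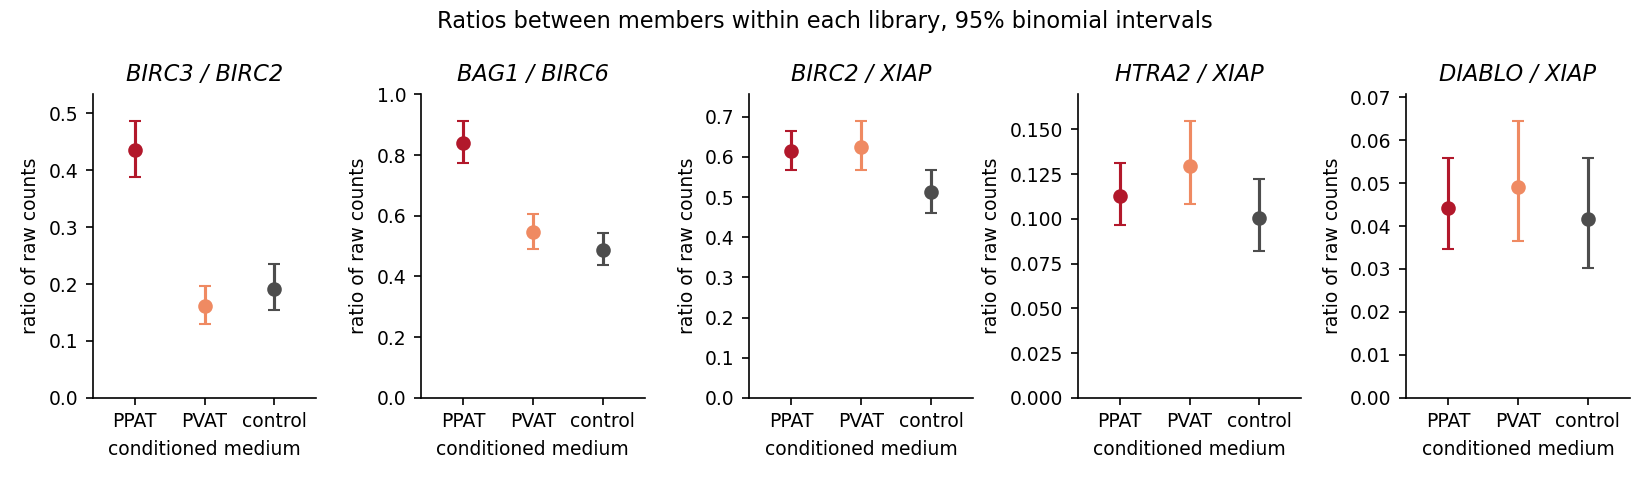
Ratio of raw counts of 2 genes within each library (y axis, linear from 0) for BIRC3 to BIRC2, BAG1 to BIRC6, BIRC2 to XIAP, HTRA2 to XIAP and DIABLO to XIAP, with points for the PPAT-CM, PVAT-CM and control-CM libraries and 95% binomial intervals. BIRC3 to BIRC2 is 0.435 in PPAT-CM against 0.161 in PVAT-CM and 0.191 in control-CM, and the intervals of the 3 libraries overlap for HTRA2 and DIABLO relative to XIAP.

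Levels can be set between genes only per length, here as scaled CPM per kilobase of annotated exon. In control-CM BIRC2 at 8.23 (7.57 to 8.94) and XIAP at 8.08 (7.61 to 8.57) were highest and did not separate. BAG1 at 4.79, BIRC6 at 3.89, HTRA2 at 2.44, BIRC3 at 0.947 and DIABLO at 0.448 followed in control-CM, each clear of its neighbours' intervals. In PPAT-CM the first 3 places were taken in the same order, by BIRC2 at 12.4, XIAP at 10.1 and BAG1 at 8.05 scaled CPM per kilobase. Below them BIRC6 at 3.80 (3.59 to 4.02) overlapped HTRA2 at 3.43 (2.95 to 3.95), which overlapped BIRC3 at 3.24 (2.95 to 3.56), and DIABLO was lowest at 0.594. In PVAT-CM the order was that of control-CM, with BIRC6 at 3.97 (3.73 to 4.22) and HTRA2 at 3.34 (2.82 to 3.94) overlapping, BIRC3 at 1.04 and DIABLO at 0.559. Per length, BIRC3 lay above 31.2% of measured genes in PPAT-CM, above 8.02% in PVAT-CM and above 6.80% in control-CM. BIRC2 lay above 73.0% in PPAT-CM, 69.8% in PVAT-CM and 62.9% in control-CM. The lengths are of all annotated exons and may exceed those of the transcripts LNCaP cells make.

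Of the other IAP family genes only NAIP, best known as a sensor of bacterial proteins, was measured. NAIP had 194 counts in PPAT-CM, 120 in PVAT-CM and 143 in control-CM, with a fold of 1.12 (0.897 to 1.40) in PPAT-CM against control-CM. Since 43.9% of its 50-base stretches occur in other genes, reads of NAIP may be split among copies. BIRC5, the mitotic IAP survivin, had 36 counts in PPAT-CM, 16 in PVAT-CM and 29 in control-CM, and all its fold intervals included 1. BIRC7 (livin, ENSG00000101197, chromosome 20, 63235883 to 63240507), an IAP known from melanoma, was the 1 family gene highest in control-CM, with 5 counts in PPAT-CM, 1 in PVAT-CM and 37 in control-CM. BIRC7 was 8.97-fold lower in PPAT-CM than in control-CM (3.52 to 29.2), and its ratio in PVAT-CM to control-CM was 0.0288 (7.1e-04 to 0.170). These are few counts, under the minimum for a measured gene. BIRC8, a gene related to XIAP, had 0 counts in all 3 libraries. The limit set for 0 counts, 3 counts, is 0.163 scaled CPM in PPAT-CM, 0.210 in PVAT-CM and 0.198 in control-CM. The upper ends of its Poisson intervals were 0.201, 0.259 and 0.243 in the same order.

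Genes that work with the IAPs were taken as lists. Of 12 NF-kB subunits and inhibitors 10 were measured. In PPAT-CM, 6 of these 10 exceeded their control-CM level by 1.5-fold or more, and none was lower by that much. Among all measured genes 12.0% were higher and 8.71% lower by that measure. The median log2 ratio of the 10 was 1.11, against 0.03 over all measured genes. RELB, the noncanonical subunit, had the largest ratio, with 363 counts in PPAT-CM, 40 in PVAT-CM and 29 in control-CM. It was 10.3-fold higher in PPAT-CM than in control-CM (7.07 to 15.6). Its counts in PVAT-CM and control-CM were each under the minimum mean for a measured gene. RELB thus passed that minimum only through the library where it was high and had to differ. The place of RELB in the count of 6 is therefore no support for that count. BCL3 had the next largest ratio, with 786 counts in PPAT-CM, 151 in PVAT-CM and 128 in control-CM. It was 5.07-fold higher in PPAT-CM than in control-CM (4.20 to 6.15). In PVAT-CM against control-CM none of the 10 passed 1.5-fold (3.15% higher and 3.49% lower among all measured genes), and the RELB interval included 1 (0.887 to 2.45). The list holds known NF-kB targets and was picked with BIRC3's values known, so its direction is no independent evidence.

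Of 21 genes of the TNF receptor complexes that hold the cellular IAPs, 18 were measured and 4 were at least 1.5-fold higher in PPAT-CM than in control-CM, with none lower and a median of 0.14, where 12.0% of all measured genes were higher, 8.71% lower and the median was 0.03. They were the ubiquitin-editing feedback inhibitor TNFAIP3 at 7.14-fold (5.13 to 10.2), the death adaptor FADD at 3.67-fold (2.64 to 5.19), the receptor TNFRSF1A at 2.16-fold (2.01 to 2.32) and the initiator caspase gene CASP8 at 1.64-fold (1.41 to 1.90). For TRAF2, RIPK1 and MAP3K14 the intervals in PPAT-CM against control-CM included 1. The fold was 1.09 (0.969 to 1.22) for TRAF2, 1.05 (0.911 to 1.22) for RIPK1 and 0.965 (0.806 to 1.16) for MAP3K14. TRAF3, of the same list, had a fold of 1.15 (1.05 to 1.26) there, with an interval above 1. In PVAT-CM against control-CM the fold was 0.752 (0.657 to 0.860) for TRAF2 and 0.839 (0.712 to 0.989) for RIPK1, both with intervals below 1. In PPAT-CM against PVAT-CM it was 1.44 (1.27 to 1.64) for TRAF2 and 1.26 (1.07 to 1.47) for RIPK1, both with intervals above 1, while both MAP3K14 intervals included 1. TNFAIP3 was also higher in PVAT-CM than in control-CM, by 1.92-fold (1.28 to 2.89), the 1 gene of the 18 to pass 1.5-fold there. Among all measured genes 3.15% were higher and 3.49% lower by that much in the same comparison. TNFRSF1A, CASP8, TRAF2, TRAF3, RIPK1 and MAP3K14 were named here after their values were seen.

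Of 15 other regulators of XIAP and of SMAC or HTRA2 release, 13 were measured, and none was at least 1.5-fold higher and 2 were at least 1.5-fold lower in PPAT-CM than in control-CM, beside 12.0% higher and 8.71% lower among all measured genes. PARL, the mitochondrial protease that matures SMAC, was 1.68-fold lower (1.44 to 1.97) and the deubiquitinase gene USP11 1.58-fold lower (1.44 to 1.73). In the HtrA family and mitochondrial protease list 9 of 12 were measured, with 2 higher and 1, PARL again, lower in PPAT-CM than in control-CM, beside the same shares of all measured genes. The higher ones were PINK1, a mitochondrial quality control kinase tied to HTRA2, at 2.31-fold (1.75 to 3.08) and the matrix protease gene CLPP at 1.60-fold (1.47 to 1.75). Of the 4 other intermembrane space proteins 1 passed, the nuclease gene ENDOG at 1.93-fold higher (1.58 to 2.36). The shares of all measured genes beside this count are again 12.0% higher and 8.71% lower.

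Of 13 BAG family genes and HSP70 partners of BAG1, 12 were measured and 2 were at least 1.5-fold higher in PPAT-CM than in control-CM, with none lower and a median of 0.12. That count of 2 in 12 is near the 12.0% of all measured genes that were higher. The constitutive chaperone gene HSPA8 had 8276 counts in PPAT-CM, 3905 in PVAT-CM and 3107 in control-CM, and was 2.20-fold higher in PPAT-CM than in control-CM (2.11 to 2.29). STUB1, a ubiquitin ligase that works with HSP70 and BAG1, was 1.96-fold higher (1.76 to 2.19). None of the 5 other BAG genes passed 1.5-fold, with BAG4 lowest at a fold of 0.786 (0.702 to 0.880) and BAG2 highest at 1.27 (1.01 to 1.60). Of 8 ubiquitin enzymes that act with IAPs, 1 passed, UBE2D3 at 1.51-fold higher (1.44 to 1.58), a count that is again near the 12.0% of all measured genes, and UBA6, which charges BIRC6 with ubiquitin, was at a fold of 1.04 (0.953 to 1.14).

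**Figure D4:**
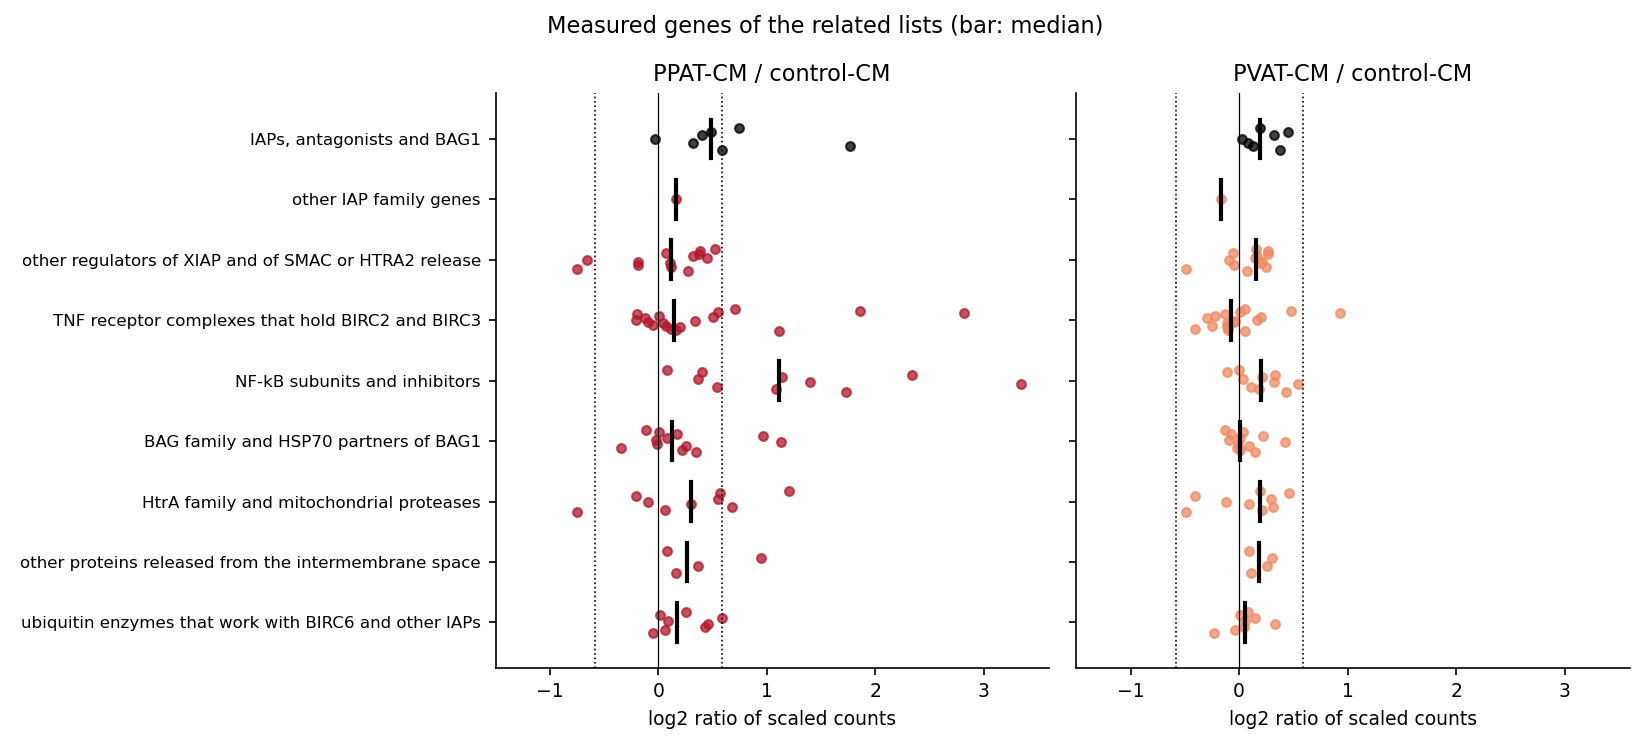
Log2 ratio of scaled counts (x axis) for each measured gene of the set (black) and of 8 related lists (rows), in PPAT-CM over control-CM and in PVAT-CM over control-CM, with a bar at each median and dotted lines at 1.5-fold. The NF-kB list has a median of 1.11 in PPAT-CM over control-CM and 0.20 in PVAT-CM over control-CM, and the 7 genes of the set have 0.49 and 0.19.

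The genes nearest in pattern to BIRC3, by distance between the 2 log2 ratios against control-CM over the 3 libraries, were FKBP5, GIMAP2 and SOD2. FKBP5 had 650 counts in PPAT-CM, 154 in PVAT-CM and 155 in control-CM, and SOD2 had 2949 in PPAT-CM, 697 in PVAT-CM and 717 in control-CM. Nearest to BAG1 were LPAR6, AP1S1 and TRAM2, and nearest to BIRC2 were the ribosomal protein pseudogene RPS2P5, CISD1 and DCK.

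Library totals were between 14174241 and 16965584 counts. Genes of the mitochondrial chromosome took 15.5% of counts in PPAT-CM, 21.1% in PVAT-CM and 30.8% in control-CM, and their part in the differences above after TMM scaling was not tested. All 9 markers of LNCaP and luminal prostate cells were measured, and their summed level lay between 3181 and 4466 scaled CPM. Among markers of other cell types, the defining genes ADIPOQ, LEP, FABP4, PTPRC, CD3E, CDH5 and KDR were at 0 counts in every library. The 6 adipocyte markers summed to 90 counts in PPAT-CM, 27 in PVAT-CM and 13 in control-CM, of which PLIN1 made up 89 in PPAT-CM, 27 in PVAT-CM and 13 in control-CM. The 6 fibroblast markers summed to 531 counts in PPAT-CM, 367 in PVAT-CM and 783 in control-CM, nearly all COL1A1, with COL1A2, DCN and PDGFRA at 0. Leukocyte, endothelial and smooth muscle lists summed to between 11 and 37 counts in any library. The part of these markers in the results was not tested.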

How the data were processed

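The deposited table holds raw read counts per Ensembl gene, whole numbers that the authors did not normalize. The submitters' processing notes name FastQC, Trimmomatic, HISAT2, featureCounts, edgeR and GRCh38. Their versions, the annotation release and the strand setting are not given here, so reads of genes that overlap on opposite strands cannot be told apart. Coordinates, exon lengths and biotypes are from GENCODE release 29, which held 58611 of the 58884 rows, and a gene name table gave symbols for 58472.

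TMM factors (edgeR 4.0.16, R 4.3.3) were 1.08 for PPAT-CM, 1.01 for PVAT-CM and 0.917 for control-CM. Log2 ratios had a pseudocount of 0.5, and a call was at least 1.5-fold. Folds, within-library ratios and their changes have exact conditional 95% intervals (Clopper-Pearson for folds and ratios), and levels exact Poisson ones. A limit for 0 counts is 3 counts. Reads carry no molecular identifiers and may be PCR copies, so intervals and limits cover counting error only. With a lone library in each medium no residual degrees of freedom remain, and no model was tested. The computations, in Python 3.11.15 (scipy 1.17.1), were tested on simulated counts. Alternatives were DESeq2 1.42.0 size factors, library totals, upper quartile factors, TMM without mitochondrial genes, and other filters, pseudocounts and thresholds.

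The genes, lists and motifs were chosen with earlier results of these data known. The rule names the 7 genes, the other IAP genes, up to 2 genes of each list with the largest ratio past 1.5-fold in each comparison, the 3 genes nearest in pattern to a called member, and overlapping genes. CLPP, BAG2, BAG4, UBA6 and those the text marks were chosen outside it, after their values were seen. The results of 1 list are not reported here.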

Additional observations from a re-analysis of the deposited data

How the results depend on the processing

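BIRC3 stayed at least 1.5-fold higher in PPAT-CM than in control-CM and than in PVAT-CM with every scaling and pseudocount tried. The other filters and thresholds do not alter its ratio and so are no check of it. With library totals in place of TMM the median ratio of all measured genes shifted by 0.24 on the log2 scale in PPAT-CM against control-CM, 0.13 in PVAT-CM against control-CM and 0.11 in PPAT-CM against PVAT-CM. Under that scaling the median of the 7 genes was 0.73 in PPAT-CM against control-CM, and the number at least 1.5-fold higher was 5 in PPAT-CM against control-CM, 1 in PVAT-CM against control-CM and 2 in PPAT-CM against PVAT-CM, beside 24.1%, 6.67% and 12.0% of all measured genes in the same order. Relative to all genes the median of the 7 in PPAT-CM against control-CM was 0.46 higher with either scaling. A change of scaling moves the ratios of all genes nearly alike, so this difference could not change and is no check. At a lower threshold, a ratio of 5 to 4, the numbers higher were 5, 2 and 2 in the same order of comparisons (25.5%, 13.6% and 20.3% of all measured genes), and at 2-fold the number in PPAT-CM against control-CM was 1 (3.93%). BIRC2 left the call in PPAT-CM against control-CM with upper quartile factors (0.51), TMM without mitochondrial genes (0.57) and a pseudocount of 5 (0.58, log2 ratios), which leaves 2 genes. No called value reversed, though scaling shifts of the size given above are too small to reverse a 1.5-fold call. The change of the summed antagonist to IAP ratio in PPAT-CM against control-CM was 0.946 times without BIRC6 and 0.999 times per kilobase. No paired analysis was possible because each medium had 1 library, and no library could be left out. Depth limits DIABLO most, at 74 counts or fewer per library.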

Other observations

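The BIRC3 and BIRC2 locus had other genes that were higher in PPAT-CM, which were looked up after the values of the pair were seen. Within 500 kb of the pair 8 genes were measured, the pair included. Of these 5, YAP1, BIRC3, BIRC2, TMEM123 and MMP7, were at least 1.5-fold higher in PPAT-CM than in control-CM, and 1, ENSG00000277459, was lower. Among all measured genes 12.0% were higher and 8.71% lower. BIRC3 and BIRC2 are in the 5 by choice, since the window was drawn around them with their values known, so they are no support for that count. YAP1, a transcriptional coactivator of the Hippo pathway, had 2778 counts in PPAT-CM, 1328 in PVAT-CM and 1390 in control-CM and was 1.65-fold higher in PPAT-CM than in control-CM (1.55 to 1.76). TMEM123, a transmembrane protein gene next to BIRC2, had 4460 counts in PPAT-CM, 2372 in PVAT-CM and 1649 in control-CM, and was higher in both adipose media than in control-CM, by 2.23-fold (2.11 to 2.36) in PPAT-CM and 1.53-fold (1.44 to 1.63) in PVAT-CM. The secreted protease gene MMP7 had 145 counts in PPAT-CM, 6 in PVAT-CM and 7 in control-CM, so it passed the minimum mean of 50 counts only through the library where it was high and had to differ. The place of MMP7 in the count of 5 is therefore no support for that count either, which leaves YAP1 and TMEM123. BIRC2 and TMEM123 were thus higher in both adipose media, while the counts of BIRC3, YAP1 and MMP7 in PVAT-CM were close to those in control-CM. The window was not compared with others of its size.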
